A study of Homo sapiens with 6 samples.

Results

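Collagen chains are the polypeptides that assemble into the triple helices of the extracellular matrix, and their genes were taken here as a family of 44 protein-coding genes whose symbol is COL, a number, A and a number. Its members were taken by this name pattern and by no measured value. All 44 were found among the 39168 Ensembl identifiers of the count and TPM tables, each on 1 row. The chains were measured by bulk RNA sequencing in CAL62, an established cell line from anaplastic thyroid carcinoma (ATC), labelled wild type. One group of 3 libraries came from cells given 50 nM erianin, a natural compound of Dendrobium, for 48 h. The other group of 3 libraries came from cells given the solvent DMSO without erianin for 48 h. The study calls the libraries of a group replicate experiments of this one line. Separate cultures are not stated, so the p-values measure only the spread between these libraries, which may be technical.

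Fibrillar collagens such as types I, V and XI build tensile fibres, and type IV collagen forms the sheet-like network of basement membranes on which epithelial cells, including thyroid follicular cells, rest. FACIT chains (fibril-associated collagens with interrupted triple helices) decorate fibres, transmembrane chains anchor cells to the matrix, and multiplexins sit at basement membranes. Chains are hydroxylated and folded in the endoplasmic reticulum. Fibrillar procollagens are then trimmed and crosslinked outside the cell, and collagens are bound by receptors such as integrins and discoidin domain receptors, and cut by proteases such as matrix metalloproteinases.

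Between 25776301 and 34107727 reads were counted on named genes in each library. DMSO replicate 3 stood apart: the chi-square of its counts against DMSO replicates 1 and 2 was 91.4 and 105 per gene, against 4.37 between those replicates and 3.8 to 4.8 within the erianin group. Results are therefore also given without it. Of 7 thyroid follicular markers, PAX8 was abundant, FOXE1 was low, and TSHR and NKX2-1 had no read in any library. KRT8 and KRT18, which mark epithelial cells, were abundant, while CDH1 had at most 9 reads in a library. The mesenchymal markers VIM, FN1 and CDH2 were expressed too, with means of 551, 315 and 31.8 TPM in DMSO. Of 6 fibroblast markers only THY1 passed the filter on low counts and DCN had no read, so the fibroblast markers were at or near 0. PAX8 (log2 fold change -0.66) and FN1 (-0.80), a mesenchymal marker and matrix protein, were themselves called lower with erianin, and their part in the results for collagens was not tested. In bulk RNA, fewer cells that express a gene and less of its RNA per cell cannot be told apart.

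The quasi-likelihood test of edgeR was run on the counts of the 12821 genes that passed a filter on low values. A call needed an adjusted p (Benjamini-Hochberg) below 0.05 together with a log2 fold change beyond 0.5 in either direction. Fold changes are erianin against DMSO, with their standard error (SE). Of the 44 chains, 24 passed the filter, and 20 of these reached its minimum of 0.298 CPM (reads per 1000000 counted) in all 6 libraries. The other 4 (COL4A3, COL9A3, COL13A1 and COL14A1) reached it in all erianin libraries and not in all DMSO libraries, so they could be tested only because they were high enough in erianin.

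In these cells 4 chains rose with erianin. By edgeR 0 were called lower, and DESeq2 called 1 lower, COL4A5. At an unadjusted p under 0.05, 7 chains were higher (29.2%) and 6 lower (25%), against 15.3% and 15.6% of all genes tested. The 7 include COL13A1 (edgeR unadjusted p = 0.0144), which could be tested only because of its erianin libraries. The 4 were COL1A2, which encodes the α2 chain of type I collagen, COL11A2, a chain of the cartilage fibre collagen XI, COL16A1, a FACIT chain, and COL17A1, the hemidesmosome collagen of epithelial cells. They were 16.7% of the tested chains, against 5.37% of all genes tested that were called higher and 3.36% that were called lower. By adjusted p alone, with no fold-change threshold, the same 4 chains were higher and 1, COL4A2, was lower, against 7.22% of all genes higher and 7.69% lower. The count of 4 rests on single libraries: it was 1 without DMSO replicate 1 or without any 1 erianin library, 2 without DMSO replicate 2, and 6 without DMSO replicate 3, where 11.4% of all genes were called higher and 6.11% lower. By adjusted p alone, 27.5% of all genes were higher and 27.7% lower without DMSO replicate 3. In that fit the spread between libraries estimated by edgeR (biological coefficient of variation) was 0.0421, against 0.139 with all 6 libraries. Its small p-values measure the spread of the libraries kept. In the fits without DMSO replicate 1 or 2, 3.31% and 3.27% of all genes were called higher, and without erianin replicate 1, 2 or 3, 1.42%, 1.33% and 1.42%, so calls over all genes fell as well. COL1A2 was called in each of these fits.

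The libraries of the groups did not overlap for 9 chains that were higher with erianin, 37.5% of those tested, and for 5 that were lower, 20.8%. Over all genes the shares were 19.5% and 19.3%. The 9 include COL9A3 and COL13A1, and among the 20 chains that reached the filter's minimum in all 6 libraries 7 were apart and higher (35%) and 5 apart and lower (25%). The 24 tested chains had a median log2 fold change of 0.22, and all genes tested one of 0.00. Over those 20 chains it was -0.01, with 10 chains higher in sign and 10 lower.

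**Figure D1:**
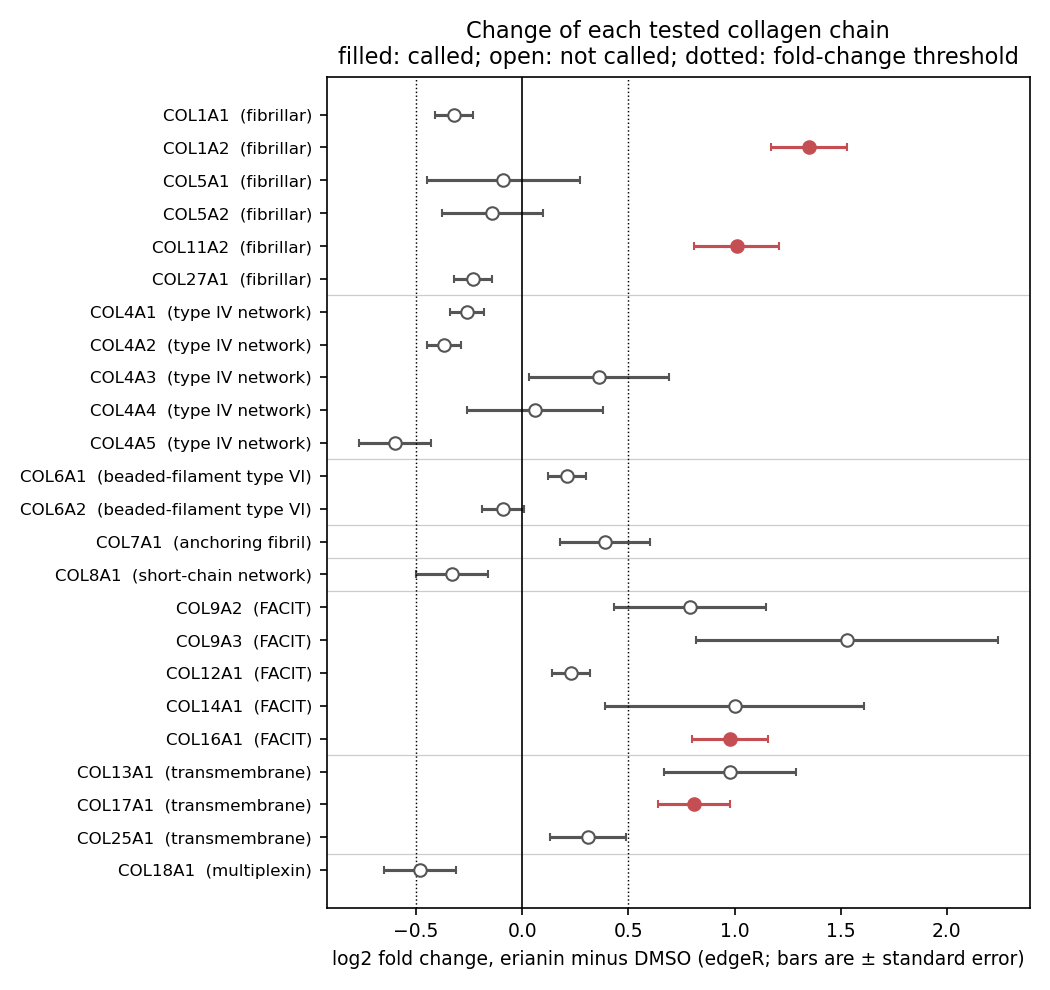
Log2 fold change of erianin against DMSO from edgeR for each of the 24 tested collagen chains (x axis), grouped by family, with bars for ± the standard error. Filled points are called and open points are not. The 4 filled points lie between 0.81 and 1.35, and the type IV chains COL4A1, COL4A2 and COL4A5 lie below 0.

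COL1A2 and COL1A1 encode the partner chains of type I collagen, the main fibre collagen of skin and bone. COL1A2 measured 11.1, 11.1 and 7.16 CPM in DMSO replicates 1 to 3 and 25.1, 26.8 and 22.9 CPM in the erianin libraries. Every erianin library was above every DMSO library, and DMSO replicate 3 was the lowest. Its log2 fold change was 1.35 ± 0.18 (SE, n = 3 per group; edgeR adjusted p = 0.00532), a 2.55-fold rise. Without DMSO replicate 3 the log2 fold change was 1.16 (edgeR adjusted p = 2.01e-12), and over the 6 fits that left out 1 library it ran from 1.16 to 1.45, with an edgeR adjusted p of at most 0.043. COL1A2 lies at chr7:94394561-94431232 on the plus strand of GRCh38 (GENCODE release 29), where an annotated antisense gene shares 1048 bases with it. Strand use in counting was not given in the sources used here, so reads of the antisense gene could not be told apart.

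COL1A1, which provides the other chain of type I collagen, moved the other way in sign. It measured 32, 36.1 and 36.1 CPM in DMSO and 26.7, 29.5 and 27.3 CPM with erianin, so all erianin libraries were below all DMSO libraries. The log2 fold change of -0.32 ± 0.09 did not pass the test with all 6 libraries (edgeR adjusted p = 0.0613). Without DMSO replicate 3 it was -0.30 (edgeR adjusted p = 0.000785), still under the fold-change threshold.

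COL11A2, whose product pairs with other type XI and type V chains in thin fibres, was a low-level gene that rose. It measured 1.19, 1.23 and 1.41 CPM in DMSO and 2.43, 2.32 and 3.03 CPM with erianin, with no overlap. The log2 fold change was 1.01 ± 0.20 (edgeR adjusted p = 0.0162). It was called in 1 of 6 fits with a library left out, the one without DMSO replicate 3, and the edgeR adjusted p reached 0.0883 in the others.

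The remaining fibrillar chains did not pass the test with all 6 libraries. COL27A1, a cartilage-type fibre chain, was the most abundant of them and measured 44.6, 44.3 and 47.9 CPM in DMSO and 38, 42.6 and 35.9 CPM with erianin, a log2 fold change of -0.23 ± 0.09 (edgeR adjusted p = 0.148). Without DMSO replicate 3 it was -0.20 (edgeR adjusted p = 0.0145), under the fold-change threshold. COL5A1 and COL5A2, which set fibre diameter as partners of type I collagen, had log2 fold changes of -0.09 ± 0.36 and -0.14 ± 0.24, with overlapping groups. COL2A1, COL3A1, COL5A3, COL11A1 and COL24A1 had too few reads to test.

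Type IV collagen held most of the collagen transcripts of these cells. COL4A2 and COL4A1, partners in the common type IV network, had mean levels of 152 ± 16.6 and 40.9 ± 2.53 TPM (SD, n = 3) in DMSO, the highest of the 44 chains on this per-length scale. Together they made up 66.6%, 68.4% and 68.4% of the summed TPM of all chains in DMSO and 63.6%, 62.2% and 62.4% with erianin. These shares did not overlap between the groups.

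COL4A2 measured 292, 322 and 284 CPM in DMSO and 232, 244 and 221 CPM with erianin. All erianin libraries were lower. COL4A2 fell by 0.37 ± 0.08 on the log2 scale (edgeR adjusted p = 0.0225), less than the fold-change threshold. Without DMSO replicate 3 the log2 fold change was -0.41 (edgeR adjusted p = 4.32e-09), but with any other library left out the test was not passed, with an edgeR adjusted p of up to 0.123. On the TPM scale COL4A2 was not past the threshold in any of the 3 limma fits.

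COL4A1 measured 73.6, 81.6 and 80.9 CPM in DMSO and 68.2, 66.5 and 62.1 CPM with erianin. Its groups did not overlap, and the log2 fold change of -0.26 ± 0.08 missed the threshold (edgeR adjusted p = 0.0691). Without DMSO replicate 3 the log2 fold change of COL4A1 was -0.25 (edgeR adjusted p = 0.000323), under the fold-change threshold. COL4A5, a chain of the type IV network of kidney and other specialised basement membranes, measured 5.34, 4.81 and 5.91 CPM in DMSO and 3.19, 4.24 and 3.17 CPM with erianin. All erianin libraries were lower, the log2 fold change was -0.60 ± 0.17 (edgeR adjusted p = 0.056), and COL4A5 was called lower by DESeq2, after an offset for GC content and without DMSO replicate 3 (-0.52, edgeR adjusted p = 0.0101). COL4A3 and COL4A4, the partners of COL4A5 in that network, had log2 fold changes of 0.36 ± 0.33 and 0.06 ± 0.32 with overlapping groups, and COL4A6 had 2 reads in all.

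**Figure D2:**
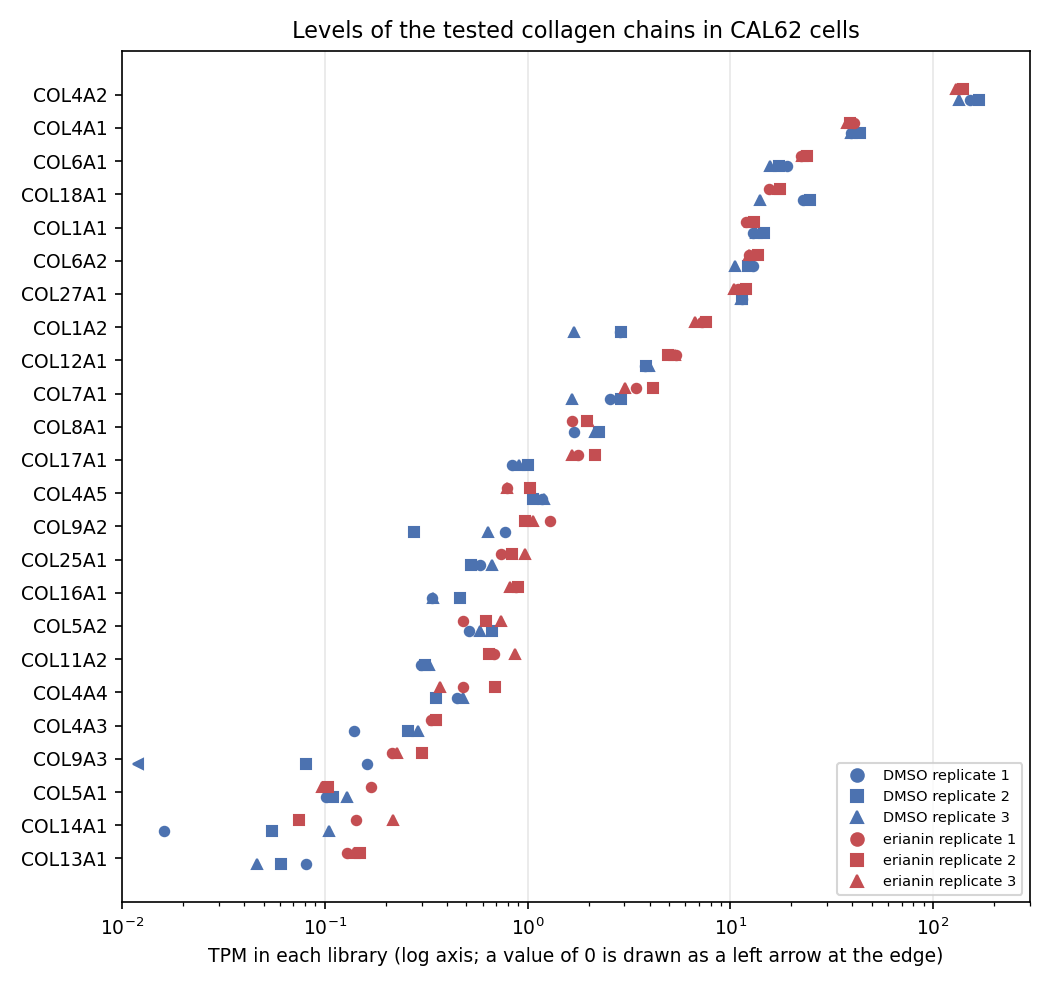
TPM of the 24 tested collagen chains in each library on a log axis, ordered by the mean over the 6 libraries, with blue symbols for DMSO and red for erianin. COL4A2 lies between 130 and 168 TPM in all libraries, and 11 chains have a mean under 1 TPM.

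COL4A1 and COL4A2 are neighbours that are read in opposite directions. In the RefSeq promoter table for GRCh38.p14 their starts, 110307157 and 110307284 on chromosome 13, stand 127 bases apart, and their windows of 250 bases before to 50 bases after the start share 226 bases. In GENCODE release 29 the transcribed spans of the genes overlap by 1422 bases on opposite strands. Promoter windows are given for COL4A2, where 1 window holds the starts of both chains, and for 3 of the 4 called chains, COL11A2, COL16A1 and COL17A1, to show their base composition. COL4A2 does not meet the fold-change threshold, so its window was chosen after its values were seen. Letters run 5′ to 3′ on the strand of the gene, position 251 is the RefSeq start, and capitals mark 4 motifs on either strand: the TATA box as TATAAA, the CCAAT box as CCAAT, the GC box as GGGCGG and the AP-1 motif as TGANTCA, where N is any base. A match is only a run of letters.
COL11A2: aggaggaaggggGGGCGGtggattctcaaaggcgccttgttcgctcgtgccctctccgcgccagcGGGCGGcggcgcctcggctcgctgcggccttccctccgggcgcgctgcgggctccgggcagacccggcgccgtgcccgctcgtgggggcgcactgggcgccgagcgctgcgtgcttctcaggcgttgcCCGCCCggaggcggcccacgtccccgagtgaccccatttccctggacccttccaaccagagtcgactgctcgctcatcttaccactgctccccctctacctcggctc
COL16A1: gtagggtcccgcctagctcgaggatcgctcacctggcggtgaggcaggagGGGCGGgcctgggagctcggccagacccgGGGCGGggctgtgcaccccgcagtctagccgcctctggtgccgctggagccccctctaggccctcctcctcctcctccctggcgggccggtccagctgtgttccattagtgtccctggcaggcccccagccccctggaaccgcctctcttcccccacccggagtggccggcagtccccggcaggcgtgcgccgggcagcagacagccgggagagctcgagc
COL17A1: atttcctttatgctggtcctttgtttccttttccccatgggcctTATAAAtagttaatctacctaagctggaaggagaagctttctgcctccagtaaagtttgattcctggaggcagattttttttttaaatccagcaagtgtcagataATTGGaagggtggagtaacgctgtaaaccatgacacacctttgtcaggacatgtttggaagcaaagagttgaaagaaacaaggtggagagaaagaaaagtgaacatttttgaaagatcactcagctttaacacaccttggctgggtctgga
COL4A2: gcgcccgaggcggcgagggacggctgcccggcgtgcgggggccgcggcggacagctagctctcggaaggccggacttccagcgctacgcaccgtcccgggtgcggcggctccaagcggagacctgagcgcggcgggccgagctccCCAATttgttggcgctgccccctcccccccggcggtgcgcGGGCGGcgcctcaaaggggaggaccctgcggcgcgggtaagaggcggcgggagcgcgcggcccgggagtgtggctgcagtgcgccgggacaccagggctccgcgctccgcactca

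The COL4A2 window (chr13:110307034-110307333, plus strand) had a GC content of 77.7% and 45 CpG dinucleotides, with 1 CCAAT at position 146 and 1 GGGCGG at position 186. COL11A2 (chr6:33193088-33193387, minus strand) had 73% GC and 3 GGGCGG. Its window is 1 of 4 in the table, the one nearest to the GENCODE start. The RefSeq start of COL11A2 still lies 638 bases from the GENCODE start. For COL4A2, COL16A1 and COL17A1 the distance is 1472, 302 and 77 bases, and only the COL17A1 window holds the GENCODE start of its gene. COL16A1 (chr1:31703968-31704267, minus strand) had 73.7% GC and 2 GGGCGG. COL17A1 (chr10:104085831-104086130, minus strand) was unlike the others, with 40.7% GC, 1 CpG, a TATAAA at position 45 and a CCAAT on the other strand at position 150. The median GC content of all 35116 windows was 58.7%. GGGCGG stood in 18 of the 32 chains that had a window, 56.2%, and in 45% of all windows. CCAAT stood in 31.2% and 34.6%, TATAAA in 18.8% and 11.5%, and TGANTCA in 3.12% and 7.71%.

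Of the 5 tested FACIT chains 1 was called. COL9A3 and COL14A1 were tested only because they reached the filter's minimum with erianin, so their sign is no support for a direction of the family. COL16A1, which lies along fibres and near basement membranes, measured 1.31, 1.79 and 1.44 CPM in DMSO and 3.07, 3.18 and 2.8 CPM with erianin. The groups were well apart, and the log2 fold change was 0.98 ± 0.18 (edgeR adjusted p = 0.0148). It was called in 2 of 6 fits with a library left out, those without DMSO replicate 2 and without DMSO replicate 3, and the edgeR adjusted p reached 0.0805. An annotated antisense gene shares 7916 bases with COL16A1 (chr1:31652247-31704319, minus strand).

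COL12A1, a FACIT chain that links type I fibres, was the most abundant of its family. It measured 35.3, 35.5 and 40.3 CPM in DMSO and 44.8, 41.9 and 43.8 CPM with erianin, without overlap, but the log2 fold change of 0.23 ± 0.09 did not pass the test (edgeR adjusted p = 0.128). Without DMSO replicate 3 it was 0.29 (edgeR adjusted p = 0.000261). The type IX chains COL9A2 and COL9A3, which coat cartilage fibres, had log2 fold changes of 0.79 ± 0.36 and 1.53 ± 0.71 and did not overlap between groups, from levels of at most 1.56 and 0.37 CPM in DMSO. COL14A1, which like COL12A1 binds fibres, was estimated at 2-fold, with an SE of 0.61 on the log2 scale and overlapping groups. None of these 3 chains passed the test. Without DMSO replicate 3, COL9A2 (0.98, edgeR adjusted p = 0.0101) and COL14A1 (1.74, edgeR adjusted p = 0.0128) were also called.

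Of the 3 tested transmembrane chains 1 was called. COL17A1, which ties epithelial cells to the basement membrane, measured 2.09, 2.5 and 2.47 CPM in DMSO and 3.98, 4.84 and 3.63 CPM with erianin. Every erianin library exceeded every DMSO library, with a log2 fold change of 0.81 ± 0.17 (edgeR adjusted p = 0.0225). As for COL11A2, leaving out any library but DMSO replicate 3 ended the call (edgeR adjusted p up to 0.103). COL13A1, found at cell adhesions and tested only because of its erianin libraries, had a log2 fold change of 0.98 ± 0.31 without overlap (edgeR adjusted p = 0.0745), and COL25A1, a neuronal membrane collagen, one of 0.31 ± 0.18 with overlap (edgeR adjusted p = 0.293). Without DMSO replicate 3, COL25A1 was at 0.46 (edgeR adjusted p = 0.0347), under the fold-change threshold.

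**Figure D3:**
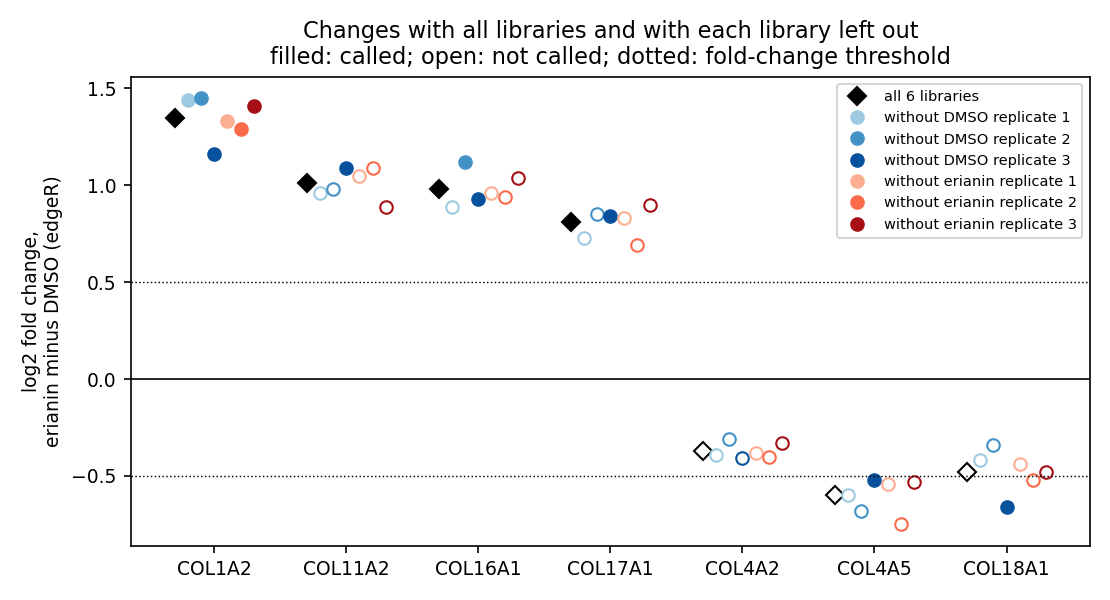
Log2 fold change from edgeR of 7 collagen chains with all 6 libraries (black diamonds) and with each library left out in turn (circles), filled where the chain was called. COL1A2 is filled throughout, COL11A2 and COL17A1 are filled only with all libraries and without DMSO replicate 3, and COL4A5 and COL18A1 are filled only without DMSO replicate 3.

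COL18A1, the multiplexin that gives rise to endostatin, was not called with all 6 libraries and was called lower without DMSO replicate 3. It measured 95.3, 103 and 63.9 CPM in DMSO and 58.7, 66.5 and 63.3 CPM with erianin. DMSO replicates 1 and 2 were above all erianin libraries, whereas DMSO replicate 3 lay among them. The log2 fold change of -0.48 ± 0.17 did not pass the test (edgeR adjusted p = 0.104), and without that library it was -0.66 (edgeR adjusted p = 5.32e-12). COL18A1 shares 20149 bases with SLC19A1 on the opposite strand, which had between 751 and 1235 reads per library.

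Type VI collagen forms beaded filaments around cells from COL6A1, COL6A2 and a longer chain. COL6A1 measured 39.7, 36.2 and 35.8 CPM in DMSO and 42, 45.3 and 41.8 CPM with erianin, and COL6A2 measured 34.5, 32.6 and 31 CPM in DMSO and 29.7, 33.2 and 29.3 CPM with erianin. COL6A1 was above its DMSO range in every erianin library and COL6A2 overlapped. Neither passed the test with all 6 libraries, with log2 fold changes of 0.21 ± 0.09 and -0.09 ± 0.10. Without DMSO replicate 3, COL6A1 was at 0.18 (edgeR adjusted p = 0.0204), under the fold-change threshold. COL6A3, the usual longer chain, had between 4 and 13 reads per library and was not tested.

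COL7A1, the anchoring fibril chain beneath epithelia, measured 8.54, 9.64 and 6.04 CPM in DMSO and 10.3, 12.7 and 8.91 CPM with erianin, with overlap and a log2 fold change of 0.39 ± 0.21 (edgeR adjusted p = 0.241). COL8A1, a short-chain network collagen of vessels and cornea, measured 4.27, 5.61 and 5.88 CPM in DMSO and 3.72, 4.47 and 4.4 CPM with erianin. Its groups overlapped as well, with a log2 fold change of -0.33 ± 0.17 (edgeR adjusted p = 0.233).

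The 20 untested chains had at most 13 reads in any library. Besides those named above they were COL6A5, COL6A6, COL8A2, COL9A1, COL10A1, COL15A1, COL19A1, COL20A1, COL21A1, COL22A1, COL23A1, COL26A1 and COL28A1. Of the 20, 6 had no read in any DMSO library, 3 had none in any erianin library, and 2 had a read in all 6. COL2A1, the main fibre chain of cartilage, had 0, 0 and 0 reads in DMSO and 6, 7 and 2 with erianin. Summed over the 20 chains there were 67 reads in DMSO and 162 with erianin, or 0.739 and 1.61 CPM before TMM adjustment, a ratio of 2.17. Over the 5231 untested genes with a read, the same ratio was 1.75.

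Direction differed with level. Of the 13 tested chains with a mean of at least 1 TPM, 5 were higher in sign and 8 lower, with a median log2 fold change of -0.23. Of the 11 chains under 1 TPM, which include the 4 that reached the filter's minimum in full only with erianin, 9 were higher and 2 lower, with a median of 0.79. Over all genes tested the median log2 fold change was -0.02 at 1 TPM or more and 0.30 under it, where 70% of 1605 genes were higher in sign and 11% were called higher. Of the 4 called chains, COL1A2 and COL17A1 were at or above 1 TPM, and COL11A2 and COL16A1 were under it. What part this shift by level has in the results for the chains was not tested.

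The summed TPM of all chains was 286, 310 and 255 in DMSO and 275, 287 and 268 with erianin. The groups overlapped, with means of 284 ± 27.5 and 277 ± 9.44 (SD, n = 3; exact two-sided permutation test of the log2 values, p = 0.8, where 0.1 is the smallest possible). The TPM columns, over all rows, summed to between 590907 and 782864, under 1000000 in every library and lowest in DMSO replicate 3. For rescaling, the columns of identified genes were used. Rescaled to a column total of 1000000, the sums were 390, 427 and 432 in DMSO and 356, 382 and 343 with erianin, which did not overlap (416 ± 23 and 360 ± 19.9, log2 difference -0.21; exact two-sided permutation p = 0.1). The overlap in the summed level therefore depended on the scale. Shares within the collagen total do not depend on that scale. COL4A2 alone was 52.9%, 54.3% and 52.9% of it in DMSO and 48.9%, 48.6% and 48.4% with erianin, while the type I pair was 5.51 to 5.9% in DMSO and 7 to 7.22% with erianin. The 4 called chains together were 1.28 to 1.52% of the collagen total in DMSO and 3.73 to 3.94% with erianin, a direction that their choice as called chains fixes.

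Ratios were compared for 4 pairs of partner chains, the first 2 chains each of types I, IV, V and VI. Other pairs with both chains tested, such as COL9A2 and COL9A3, were not compared. The TPM ratio of COL1A1 to COL1A2 was 4.5, 5.08 and 7.89 in DMSO and 1.67, 1.72 and 1.87 with erianin. The ratio was lower in every erianin library, by 1.69 on the log2 scale, and DMSO replicate 3 had the highest value. Without that library the log2 difference was -1.45. The exact two-sided permutation p was 0.1, the smallest that 3 against 3 libraries allow, and 0.2 after Benjamini-Hochberg adjustment over the 4 pairs, so this design could not pass the threshold. In most tissues type I collagen is built from a pair of α1 chains and a single α2 chain.

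The TPM ratio of COL6A1 to COL6A2 was 1.47, 1.42 and 1.48 in DMSO and 1.81, 1.75 and 1.83 with erianin. The groups were apart by 0.30 on the log2 scale, with SDs of 0.0311 and 0.0349 (exact two-sided permutation p = 0.1, adjusted 0.2). COL4A1 to COL4A2 was 0.259, 0.26 and 0.293 in DMSO and 0.302, 0.28 and 0.289 with erianin, which overlapped (log2 difference 0.10, exact p = 0.3). COL5A1 to COL5A2 overlapped too and differed by 0.04 on the log2 scale, with an SD of 0.748 in the erianin group (exact p = 0.9).

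**Figure D4:**
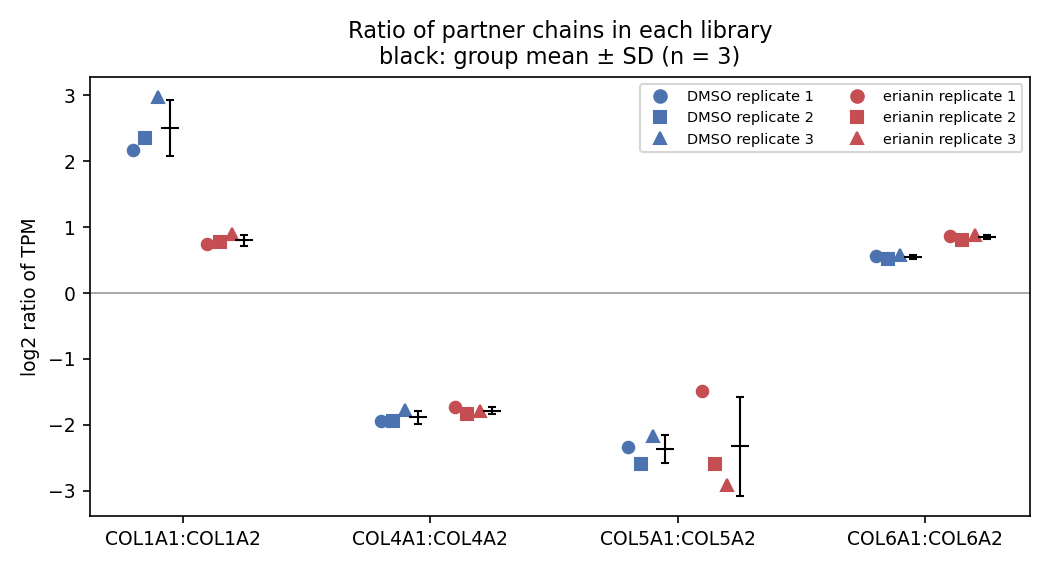
Log2 of the TPM ratio of 4 pairs of partner chains in each library (y axis), DMSO in blue and erianin in red, with the group mean ± SD (n = 3) in black. The erianin libraries lie below all DMSO libraries for COL1A1:COL1A2 and above them for COL6A1:COL6A2, and the groups overlap for COL4A1:COL4A2 and COL5A1:COL5A2.

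Of 54 genes that modify, export, trim, crosslink, bind or cut collagen, 43 were tested, of which 3 were called higher (6.98%, against 5.37% of all genes) and 4 lower (9.3%, against 3.36%). Their median log2 fold change was 0.06. The lists were chosen with earlier results of these data known, so these shares are no independent comparison with all genes. Among 12 tested genes of procollagen hydroxylation and glycosylation, CRTAP, a subunit of the prolyl 3-hydroxylase complex, was called lower at 327, 306 and 332 CPM in DMSO and 203, 208 and 199 CPM with erianin. CRTAP fell by 0.66 ± 0.07 on the log2 scale (edgeR adjusted p = 0.0023). The others with most reads were P4HB, a subunit of prolyl 4-hydroxylase, at -0.10 ± 0.07, and PLOD2, a lysyl hydroxylase, at 0.24 ± 0.18. Neither passed the test with all 6 libraries. PLOD2 measured 220, 224 and 358 CPM in DMSO and 313, 309 and 326 CPM with erianin. Without DMSO replicate 3, its highest library, PLOD2 was called higher, as were 11.4% of all genes. COLGALT1, a collagen galactosyltransferase, was listed at 0 in all libraries.

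Among 8 tested genes of procollagen folding and export, FKBP10, a collagen prolyl isomerase, measured 558, 531 and 489 CPM in DMSO and 344, 347 and 339 CPM with erianin. All erianin libraries were lower, and FKBP10 fell by 0.61 ± 0.07 on the log2 scale (edgeR adjusted p = 0.004). SERPINH1, the collagen chaperone HSP47, had a log2 fold change of -0.15 ± 0.06 and SEC23A, a coat subunit of export vesicles, one of 0.08 ± 0.07, neither past the threshold. FKBP14 (0.40) and TMEM38B (0.47) rose by adjusted p alone (edgeR adjusted p = 0.0319 and 0.0155). Of the procollagen proteinases and their enhancers 6 were tested and 0 were called. TLL2 (-0.43) and FURIN (-0.40), the 2 lower at an unadjusted p under 0.05, were also lower by adjusted p alone (edgeR adjusted p = 0.0276 and 0.0287). The 2 were 33.3% of the 6 tested. Of all genes, 15.6% were lower at that unadjusted p and 7.69% by adjusted p. BMP1, which trims the carboxyl end of procollagen, was at -0.21 ± 0.12 and did not pass.

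LOXL1, one of 5 crosslinking lysyl oxidases, was called lower. It measured 116, 129 and 98.2 CPM in DMSO and 46.6, 46.2 and 47.8 CPM with erianin, far below the DMSO range, and fell by 1.29 ± 0.11 on the log2 scale (edgeR adjusted p = 0.00124). LOX and LOXL2, the others with most reads, had log2 fold changes of 0.31 ± 0.12 and -0.09 ± 0.10 and did not pass the test. LOXL4 measured 0.411, 0.647 and 0.385 CPM in DMSO and 1.02, 1.37 and 0.857 CPM with erianin. Its groups did not overlap, and the log2 fold change of 1.15 ± 0.32 missed the threshold (edgeR adjusted p = 0.0529), while DESeq2 and the fit with a GC offset called it higher.

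Among 8 tested collagen receptors, DDR2, a receptor kinase for fibrillar collagen, measured 0.534, 0.74 and 1.03 CPM in DMSO and 3.25, 3.72 and 2.77 CPM with erianin. DDR2 was low but rose in every erianin library, by 2.06 ± 0.26 on the log2 scale (edgeR adjusted p = 0.00463). MRC2, the endocytic receptor that takes up collagen, measured 172, 174 and 148 CPM in DMSO and 102, 108 and 96.4 CPM with erianin and fell by 0.69 ± 0.09 on the log2 scale (edgeR adjusted p = 0.00489). ITGB1, the shared β chain of the collagen-binding integrins, was at -0.22 ± 0.13 and DDR1 at 0.04 ± 0.14, and neither passed the test.

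MMP1, the interstitial collagenase that cuts type I collagen, measured 3.53, 4.1 and 3.72 CPM in DMSO and 17.7, 17.6 and 17.2 CPM with erianin. The rise was 2.21 ± 0.11 on the log2 scale (edgeR adjusted p = 0.000212). CTSK, a lysosomal cysteine protease that degrades collagen, was also called, at 0.76 ± 0.20 (edgeR adjusted p = 0.0441), but remained called in only 1 of 6 fits with a library left out, the one without DMSO replicate 3. MMP14, a membrane-bound collagenase, was far more abundant at 857 to 1160 CPM and fell by 0.33 ± 0.07 on the log2 scale (edgeR adjusted p = 0.0214), less than the fold-change threshold. MMP9 had a log2 fold change of 1.24 ± 0.36 (edgeR adjusted p = 0.057). It rested on 6, 17 and 13 reads in DMSO and 27, 44 and 29 with erianin. In DMSO replicate 1 MMP9 was at 0.246 CPM, under the filter's minimum of 0.298 CPM, and all erianin libraries were above that minimum. MMP1, DDR2, LOXL1, MRC2, CRTAP and FKBP10 were called in all 6 fits with a library left out. In the limma fits on TPM only LOXL1 of the 4 lower genes was called. On log2(TPM + 1) with the filter, CRTAP (-0.46, limma adjusted p = 0.00904), MRC2 (-0.48, limma adjusted p = 0.0333) and FKBP10 (-0.41, limma adjusted p = 0.0342) passed the adjusted p but not the fold-change threshold. The count of higher genes in these fits was 8 or 9, where 9.41%, 10.3% and 5.86% of all genes were called higher and 0.805%, 0.943% and 0.487% lower.

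**Figure D5:**
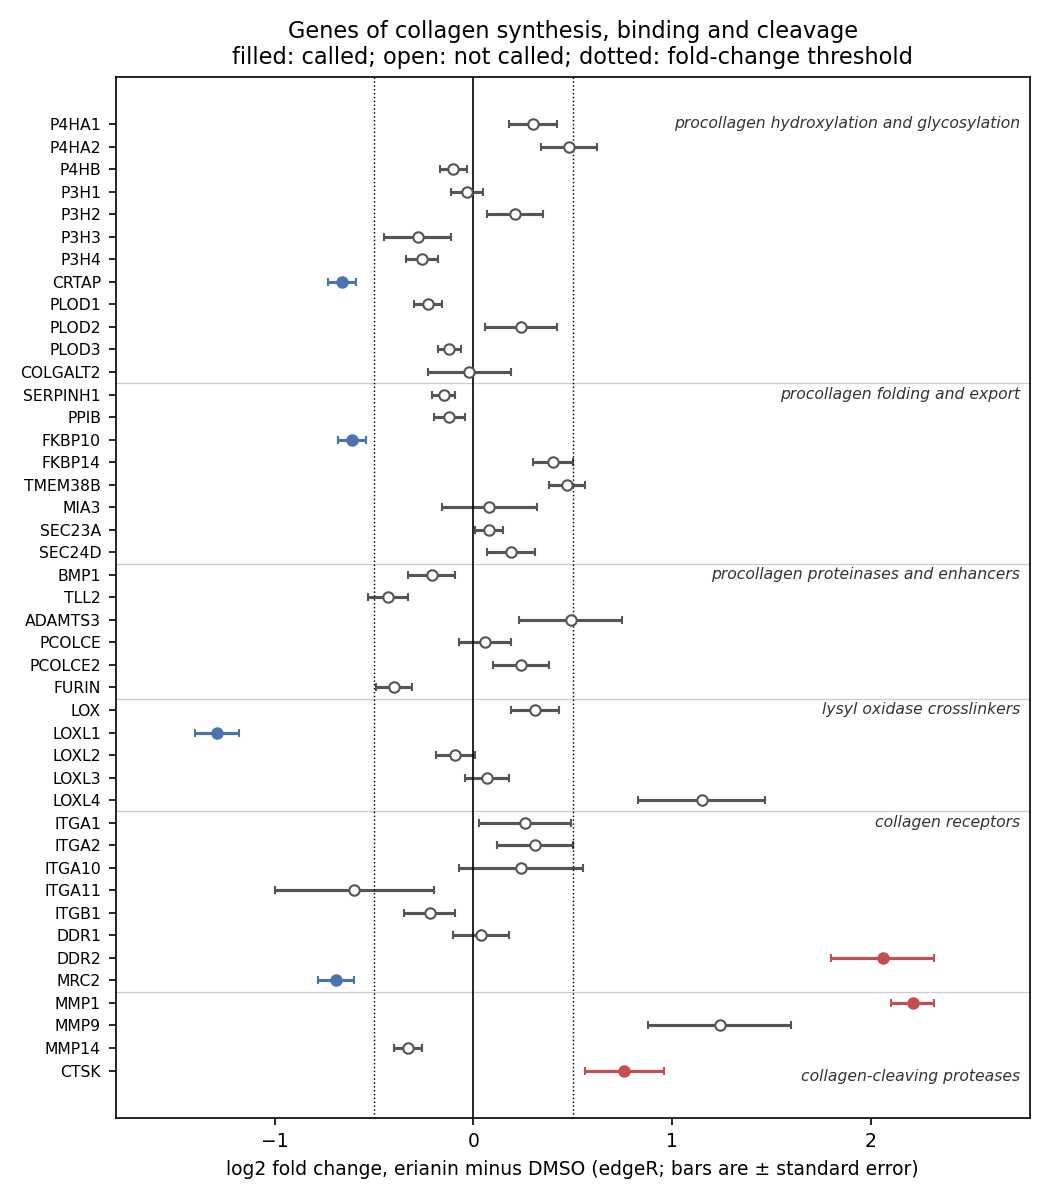
Log2 fold change of erianin against DMSO from edgeR for the 43 tested genes of collagen modification, export, trimming, crosslinking, binding and cleavage, with bars for ± the standard error. Filled red points (MMP1, DDR2 and CTSK) are called higher and filled blue points (LOXL1, MRC2, CRTAP and FKBP10) are called lower.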

How the data were processed

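Raw counts of reads per gene were deposited by the authors together with TPM values, which scale the counts by gene length and library total, for 3 DMSO and 3 erianin libraries sequenced on the study's BGISEQ platform. The submitters' processing notes name fastp 0.23.2, STAR 2.7.10, featureCounts 2.0.1, StringTie 2.2.1 and GRCh38, with no role or order. The annotation and the use of strand are not given in the sources used here. Of 65807 rows, 26480 had no gene identifier (0.00385 to 0.00515% of counts) and were left out. Symbols and gene coordinates came from GENCODE release 29 and promoter windows from RefSeq.

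Counts were filtered with filterByExpr, TMM-normalised and tested with edgeR 4.0.16 (glmQLFit, glmQLFTest, no replicate term) in R 4.3.3, with Benjamini-Hochberg adjustment over 12821 genes. The study names DESeq2, which served as an alternative. CPM values are TMM-adjusted. The SE was derived from the F statistic. The steps were tested on simulated counts, where edgeR recovered 180 of 196 changed genes with 3 false calls among 12689 genes. With a GC trend added to the simulated erianin libraries it made 690 false calls among 12696 genes without a GC offset and 1 among 12699 with it. The trend was set, not estimated from the data, on the same GC value that the offset fits, so its removal was built in. With the offset and no trend there were 8 false calls among 12682 genes. The simulated counts had the same dispersion for every gene, and no simulated library stood apart as DMSO replicate 3 did. These rates therefore need not hold for the present libraries. Alternatives were upper-quartile or RLE factors, DESeq2 1.42.0, no filter or 10 counts in every library, limma 3.58.1 on log2(TPM + 1) or log2(TPM + 0.1) for genes with a mean of at least 1 TPM or, with the pseudocount of 1, unfiltered, a GC offset (loess span 0.5), the replicate number as a block, each library left out, and a threshold of 1 on the log2 fold change.

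Sums and ratios of TPM were compared by exact permutation tests. All chains are named. Called chains and those with a mean of at least 1 TPM have values for each library, while of each pathway list the called genes and the 2 with most counts among the others are described, and other genes past the adjusted p alone, LOXL4 and COLGALT1 were added after their values were seen. The members of the family came from the name pattern alone. The family, the lists and the tests were chosen with earlier results of these data known. Where windows were several, the one nearest to the GENCODE start was used.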

Additional observations from a re-analysis of the deposited data

How the results depend on the processing

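The 4 chains called higher were also called by DESeq2, with upper-quartile or RLE factors, without the filter, with 10 counts in every library and with the GC offset, alone or with the replicate block. The count was 2 in each limma fit on TPM (COL1A2 and COL17A1), 2 at a log2 threshold of 1, and from 1 to 6 with a library left out. Libraries with the same replicate number did not deviate together (correlations of deviations 0.00138, 0.0253 and -0.0329). With the replicate block 1 chain was called higher, 1 was higher and 0 lower by adjusted p, and calls over all genes went from 688 to 384 higher and from 431 to 281 lower. Chains called lower, 0 in edgeR, were 1 with DESeq2, 1 with the GC offset, 1 with the GC offset and block, 2 with the GC offset without DMSO replicate 3, and 0 to 2 with a library left out. By adjusted p alone, higher chains were 8 with the GC offset without DMSO replicate 3 and 1 to 9 with a library left out, and lower chains were 4 with DESeq2, 4 with the GC offset, 4 with the GC offset and block, 5 with the GC offset without DMSO replicate 3, 0 in each limma fit on TPM, and 0 to 6 with a library left out. Over all genes the share lower by adjusted p was 7.69% in edgeR and 11.3%, 15.6%, 10.5% and 33.7% in the DESeq2 and GC offset fits in that order. In the same order 4.14%, 5.4%, 4.82% and 6.31% of all genes were called lower, against 3.36% in edgeR. With the GC offset without DMSO replicate 3, 15.6% of all genes were higher by adjusted p. With a library left out, 0.975% to 6.11% of all genes were called lower. The median of the chains was 0.33 without the filter, 0.07 with 10 counts in every library, -0.03, -0.03 and 0.02 in the limma fits on TPM, where the median of all genes moved to 0.175, 0.197 and 0.117, 0.31 with the GC offset without DMSO replicate 3, and 0.20 to 0.25 with a library left out. Pathway genes called higher were 5 with DESeq2, 7 with upper-quartile factors, 8, 9 and 8 in the limma fits on TPM, 5 with the GC offset, 5 with the GC offset without DMSO replicate 3, and 2 to 8 with a library left out. The share of all genes called higher was 6.65% with DESeq2, 6.41% with upper-quartile factors and 5.23% with the GC offset. It was 6.88% with the GC offset without DMSO replicate 3 and 1.33% to 11.4% with a library left out. Pathway genes called lower were 1 in each limma fit on TPM and 1 at a log2 threshold of 1. The log2 difference of the summed TPM was 0.03 without DMSO replicate 2 and ran from -0.11 to 0.03, and that of COL5A1 to COL5A2 was -0.08 without DMSO replicate 2 and -0.39 without erianin replicate 1, in a range of -0.39 to 0.33. The other ratios kept their direction in every fit. Pairing by number gave exact sign-flip p-values of 0.25 for COL1A1:COL1A2 and COL6A1:COL6A2, the smallest that 3 pairs allow. Of the values for single genes, 482 kept their call or lack of one, 36 lost a call and 11 gained one. Of the 482, the adjusted p alone came under 0.05 in 22 and left it in 9. No called gene changed sign. The cause of these shifts was not tested. With at most 13 reads in a library, 20 of the 44 chains were not tested.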
